A study of Mus musculus with 10 samples.

Results

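The 10 genes described here encode the proteins that detect double-stranded RNA and pass the signal on to the interferon genes. They are Tlr3, Ticam1, Ifih1, Ddx58, Dhx58, Mavs, Irf3, Traf3, Tbk1 and Ikbke. They were chosen by name for their place in the pathway, with earlier results of these data known. All 10 have a row among the 55494 annotated genes with a deposited value, and all 10 passed the filter on low counts that left 13729 genes for testing. Bulk RNA sequencing measured their levels in leukemia initiating cells (LICs), B cell precursors that were FACS-purified from spleens of Eµ-Ret mouse pups aged 13 days. The first group of 5 libraries came from pups given 20 µg of Poly(A:U), a man-made RNA duplex known to be bound by TLR3, and the other 5 came from pups given 50 µl of PBS, in both cases 7 days before the cells were purified. Every pup of both groups carried the RFP/RET transgene. The line is named after the Eµ enhancer of the immunoglobulin heavy chain, which is active in B lineage cells, and no library without the transgene was compared. The labels give no route of injection, and the series' design text gives 5 pups for each treatment.

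Double-stranded RNA is sensed in 2 compartments. TLR3 binds it inside endosomes and signals through the adaptor TRIF, the product of Ticam1, while in the cytosol RIG-I, the product of Ddx58, and MDA5, the product of Ifih1, bind it and signal through MAVS on the outer mitochondrial membrane. Both routes meet at TRAF3 and the kinases TBK1 and IKKε, the product of Ikbke, which phosphorylate the transcription factor IRF3, and the interferon that follows raises the transcription of RIG-I, MDA5 and LGP2, the product of Dhx58, in many cell types. TLR3 is best known in dendritic cells, macrophages and epithelial cells, and cytosolic sensing operates in most nucleated cells.

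Of the 9 genes with a promoter window, 2 have in it the core of the interferon-stimulated response element, GAAANNGAAA. These are the receptors Ddx58 and Ifih1, and their sequences are shown because transcripts of these receptors are known to respond to interferon. The windows come from RefSeq, build GRCm38.p6, and hold 250 bases before and 50 bases after each gene's start. A window was given for 9 of the 10 genes, and Dhx58, which had none, was not searched. The motif was searched on both strands and is in 1131 of all 32851 windows, which is 3.44%. The stretches below run 5′ to 3′ on the minus strand, which is the coding strand of all 3 genes. Capitals mark the motif, which in Ddx58 reads on the opposite strand at bases 3 to 12 after the start and in Ifih1 lies at bases 33 to 42 after it. The Ticam1 stretch has no match and is shown beside the others because the level of Ticam1 went with that of Ddx58 across the libraries.
Ddx58, chr4:40239811-40239975, minus strand: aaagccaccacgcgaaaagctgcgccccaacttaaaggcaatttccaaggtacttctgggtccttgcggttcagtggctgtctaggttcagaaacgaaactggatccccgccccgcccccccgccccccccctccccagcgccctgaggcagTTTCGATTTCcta
Ifih1, chr2:62646206-62646235, minus strand: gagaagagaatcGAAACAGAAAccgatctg
Ticam1, chr17:56276768-56276917, minus strand: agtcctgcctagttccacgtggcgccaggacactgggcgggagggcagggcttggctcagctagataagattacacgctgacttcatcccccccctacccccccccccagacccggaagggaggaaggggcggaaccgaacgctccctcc
A match in letters describes these windows and does not show that a factor binds there.

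The libraries held between 17859006 and 22587871 estimated reads. B cell precursor markers were high in all 10 of them, with Cd79a, whose product is the signalling partner of surface immunoglobulin, at 2588 to 3549 CPM (counts per 1e+06 gene reads of the library) with Poly(A:U) and 2541 to 3687 CPM with PBS. The sum of the 11 B cell precursor markers was lowest in PBS 4, at 8359 CPM, against 10235 to 13201 CPM in the other 9 libraries. Some PBS libraries stood apart. The file names of PBS 1, PBS 2 and PBS 3 share a start found on no other library, and what it stands for is not given in the sources used here. In these 3 the 11 neutrophil markers summed to 739 to 1107 CPM, against 31.7 to 278 CPM in the other 7, and the 9 red cell markers with a row to 138 to 432 CPM, against 1355 to 12306 CPM. PBS 4 had the highest sums of the 12 macrophage markers, 164 CPM against at most 48.0 CPM elsewhere, and of the 7 T cell markers, 217 CPM against at most 36.4 CPM elsewhere. In PBS 4 the T cell sum was mostly Lck, at 140 CPM, and Cd3e, at 53.9 CPM. Cd3g, Cd4 and Trac were also highest in PBS 4. Cd3d and Cd8a, at 0.147 CPM each in PBS 4, were not. Lck made up most of the T cell sum in every other library too. The median correlation of log2 CPM of PBS 4 with the other libraries was 0.939 across genes, and it was 0.966 or more for each of the other 9. Since the shared start occurs only among PBS libraries, it and the treatment cannot be fully told apart. In bulk RNA, fewer cells of a type and less RNA per cell cannot be told apart.

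No gene of the sensing pathway passed the test between Poly(A:U) and PBS. In edgeR's quasi-likelihood test, with p-values adjusted by Benjamini-Hochberg over all 13729 genes and a threshold of 0.05, 0 of the 10 were called, and 0 of all genes were called, a background of 0%. Without adjustment, 1 of the 10, Ticam1, had p under 0.05, beside 1002 of all tested genes, or 7.30%. Without PBS 1 to PBS 3 this count was 0 of the 10, beside 5.86% of all genes, and with their name start as a term it was 0 beside 7.26%. With DESeq2, 13 genes passed the adjusted threshold, or 0.0967% of 13444, and with limma voom and quality weights 488 did, or 3.55%. None of the 10 was among either set, and their smallest adjusted p in any fit was 0.0515, in limma voom. In that fit 3 of the 10, Ticam1, Ddx58 and Tbk1, had an unadjusted p under 0.05, beside 24.3% of all genes. The log2 fold changes, Poly(A:U) minus PBS, were negative for 6 genes and positive for 4, with a median of -0.15, beside -0.00 over all tested genes. With a term for the start of the file name shared by PBS 1 to PBS 3, 7 were positive and 3 negative, with a median of 0.09, beside 0.01 over all tested genes. In the fit with treatment only, 9 of the 10 had a 95% interval within 2-fold in either direction, beside 82.7% of all tested genes. For 7 it lay within 1.5-fold, and the share of all genes within 1.5-fold is not given here. With the name start as a term, the intervals of Tbk1 and Ikbke, among these 7, went beyond 1.5-fold. They reached 0.62 for Tbk1 and -0.64 for Ikbke on the log2 scale, and the rest of the 7 stayed within 1.5-fold. There was no gene among the 10 in which the values of the groups did not overlap, and over all tested genes this was seen in 0.947%.

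**Figure D1:**
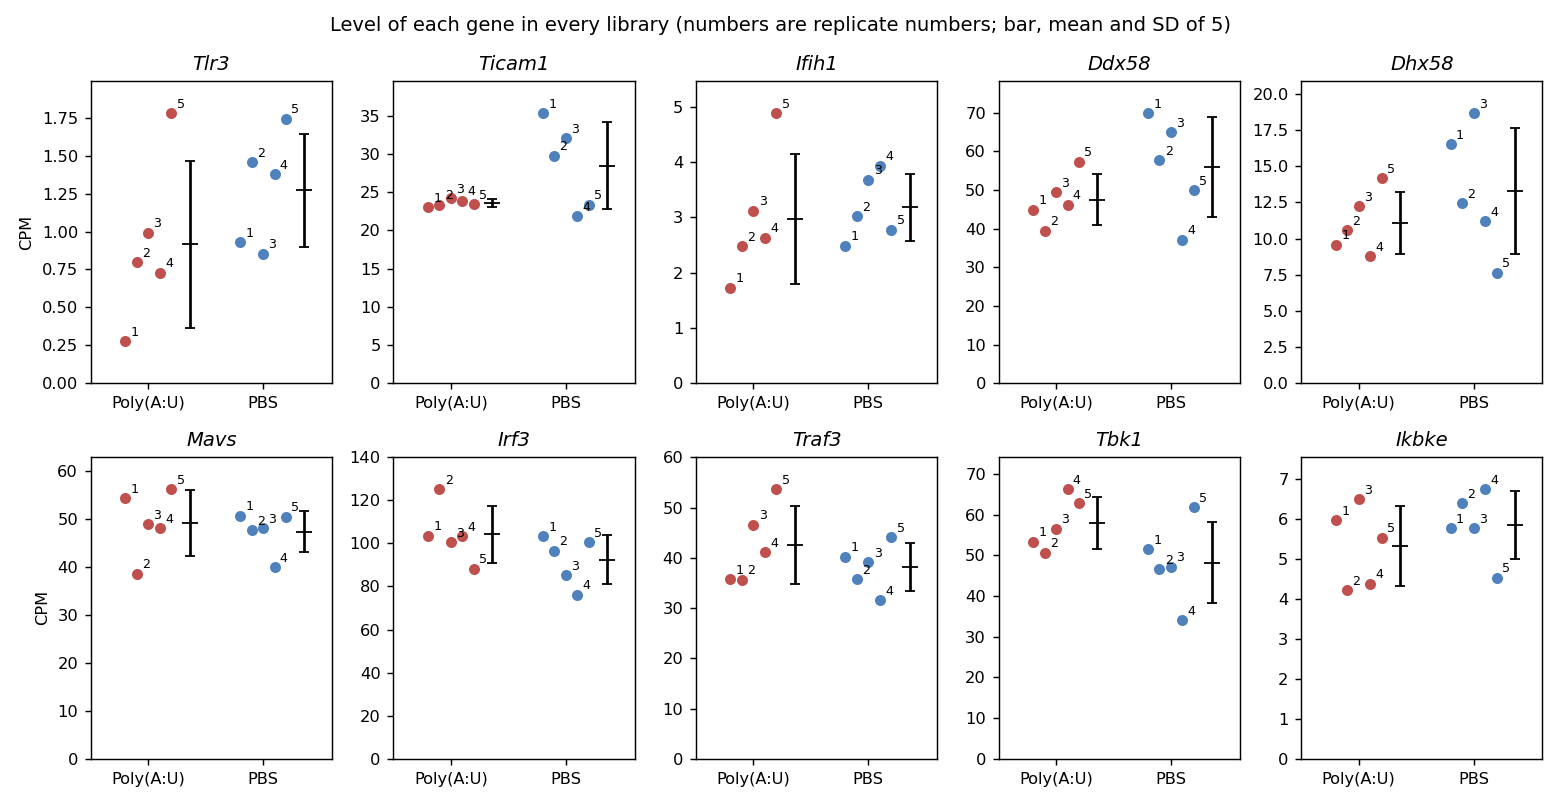
Level of each of the 10 sensing genes in CPM (vertical axes, each starting at 0) in the 5 Poly(A:U) libraries (red, left) and the 5 PBS libraries (blue, right), with replicate numbers beside the points and the mean ± SD of 5 as a bar. The groups overlap in every panel. For Ticam1 the Poly(A:U) points lie between 23.0 and 24.2 CPM, while the PBS points spread between 21.9 and 35.3 CPM.

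The genes differed far more from one another than between the treatments. On the scale of TPM, which divides by transcript length and so allows levels to be compared between genes, the most abundant of the 10 had 150 times the level of the least abundant. Irf3, the transcription factor at the end of both routes, led with 101 ± 7.76 TPM with Poly(A:U) and 90.8 ± 15.01 TPM with PBS (SD, n = 5 each). Its lowest library, at 68.4 TPM, was above the highest library of every other gene of the set. A middle group followed, with the kinase gene Tbk1 at a mean of 27.5 TPM over the 10 libraries, the adaptor gene Mavs at 21.8 TPM, the RIG-I gene Ddx58 at 19.2 TPM, the TRIF gene Ticam1 at 11.4 TPM, Traf3 at 8.82 TPM and Dhx58 at 7.75 TPM. Within this group the ranges of neighbours overlapped, and Traf3 was above Dhx58 in only 5 of 10 libraries. The 3 lowest were Ikbke at 2.49 TPM, the MDA5 gene Ifih1 at 0.993 TPM and Tlr3 at 0.643 TPM. The lowest library of Dhx58 was above the highest of Ikbke, and Tlr3 and Ifih1 overlapped. Thus the transcript of the endosomal receptor was the scarcest of the 10, while that of the cytosolic receptor RIG-I stood above 55.7% of all tested genes.

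Tlr3, the endosomal receptor, lies on chromosome 8 at 45395665 to 45411080 (mm10, minus strand). It had 0.279, 0.797, 0.994, 0.728 and 1.78 CPM in Poly(A:U) 1 to 5, and 0.928, 1.46, 0.853, 1.38 and 1.74 CPM in PBS 1 to 5. These values rest on 5 to 39 reads a library. The lowest value was in Poly(A:U) 1 and the highest in Poly(A:U) 5, so the treated libraries spanned the whole range of the controls. The log2 fold change was -0.50 ± 0.41 (SE), a fold of 0.71 with a 95% interval from 0.38 to 1.31, and the adjusted p by edgeR's quasi-likelihood test was 0.747. This was the widest interval of the 10 genes, and at this depth it leaves room for a fall as well as a rise. The log2 value moved with single libraries, at -0.28 without Poly(A:U) 1, against -0.87 when Poly(A:U) 5 was left out, and it was -0.80 without PBS 1 to PBS 3. Tlr3 had an unadjusted p of 0.0493 in edgeR without Poly(A:U) 5 and of 0.0393 in a limma fit of the authors' deposited signal, with adjusted p-values of 0.472 and 0.796. The deposited estimates spread these few reads over several transcripts, and the annotated transcript Tlr3-201 was listed at 0 in all 10 libraries.

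Ticam1, on chromosome 17 at 56269319 to 56276786 (mm10, minus strand), encodes TRIF, through which TLR3 signals. It had 23.0, 23.4, 24.2, 23.9 and 23.5 CPM in Poly(A:U) 1 to 5, and 35.3, 29.8, 32.0, 21.9 and 23.4 CPM in PBS 1 to 5. PBS 1, PBS 2 and PBS 3 stood above every Poly(A:U) library, PBS 4 lay below them all and PBS 5 among them. The mean was 23.6 ± 0.467 CPM with Poly(A:U) and 28.5 ± 5.72 CPM with PBS (SD, n = 5 each). Its log2 fold change was -0.30 ± 0.12 (SE), with an unadjusted p of 0.0335 and an adjusted p of 0.677 by edgeR's quasi-likelihood test. In a fit with the shared name start as a further term, the 3 libraries PBS 1 to PBS 3 were higher than the other PBS libraries by 0.50 ± 0.11 on the log2 scale, with an unadjusted p of 0.000823 and an adjusted p of 0.0728. The treatment term in the same edgeR fit was 0.03 ± 0.10. That term compares Poly(A:U) with PBS 4 and PBS 5 only. Leaving out PBS 1 to PBS 3 makes the same comparison and also gave 0.03. The neutrophil and red cell markers given above set the same 3 libraries apart, and their part in this value was not tested.

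Ddx58 encodes RIG-I, which binds short double-stranded RNA with a triphosphate end, and lies on chromosome 4 at 40203773 to 40239828 (mm10, minus strand). It had 44.9, 39.5, 49.4, 46.2 and 57.3 CPM in Poly(A:U) 1 to 5, and 69.8, 57.7, 65.0, 37.1 and 50.0 CPM in PBS 1 to 5. The pattern was that of Ticam1, with PBS 1, PBS 2 and PBS 3 above all Poly(A:U) libraries and PBS 4 below them all. On the log2 scale the fold change was -0.26 ± 0.15 (SE), a fold of 0.83 with a 95% interval from 0.67 to 1.04, and the adjusted p by edgeR's quasi-likelihood test was 0.695. PBS 1 to PBS 3 exceeded the other PBS libraries by 0.55 ± 0.15 on the log2 scale, with an adjusted p of 0.108 in edgeR. Without PBS 1 to PBS 3 the log2 fold change of Ddx58 between the treatments was 0.09, so its sign turned. The PBS side was then PBS 4 and PBS 5 only. With the name start as a term, the value was 0.09 ± 0.14 (SE).

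Dhx58, on chromosome 11 at 100694884 to 100704271 (mm10, minus strand), encodes LGP2, a helicase of the same family that lacks the signalling domains and modulates the other receptors. It had 9.58, 10.6, 12.3, 8.80 and 14.2 CPM in Poly(A:U) 1 to 5, and 16.5, 12.4, 18.7, 11.2 and 7.64 CPM in PBS 1 to 5. The highest values were again among PBS 1 to PBS 3, and PBS 5 was the lowest of all 10. The log2 fold change was -0.29 ± 0.22 (SE), with an adjusted p of 0.731 by edgeR's quasi-likelihood test. It was 0.20 without PBS 1 to PBS 3, with only PBS 4 and PBS 5 on the PBS side, and 0.19 ± 0.23 (SE) with the name start as a term. PBS 1 to PBS 3 exceeded the other PBS libraries by 0.73 ± 0.25 on the log2 scale, with an adjusted p of 0.150 in edgeR.

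Ifih1 encodes MDA5, which binds long double-stranded RNA, and lies on chromosome 2 at 62595798 to 62646255 (mm10, minus strand). It had 1.73, 2.48, 3.12, 2.63 and 4.88 CPM in Poly(A:U) 1 to 5, and 2.49, 3.02, 3.68, 3.93 and 2.78 CPM in PBS 1 to 5. As for Tlr3, Poly(A:U) 1 was the lowest and Poly(A:U) 5 the highest of the 10, and PBS 1 to PBS 3 did not stand apart. Its log2 fold change was -0.14 ± 0.27 (SE), a fold of 0.91 with a 95% interval from 0.61 to 1.37, and the adjusted p by edgeR's quasi-likelihood test was 0.909. Ddx58 and Ifih1, the receptor genes whose promoter windows hold the motif shown above, had a Pearson r of 0.13 over the 10 libraries.

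Across the whole transcriptome, the contrast of PBS 1 to PBS 3 with the other PBS libraries gave 2564 genes with an unadjusted p under 0.05, or 18.7%, and 77 genes called after adjustment, or 0.561%. Of the 10 sensing genes, 3 were among the first count, namely Ticam1, Ddx58 and Dhx58, and 0 were called. All 3 were higher in PBS 1 to PBS 3, where 6.35% of all tested genes were higher with an unadjusted p under 0.05.

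**Figure D2:**
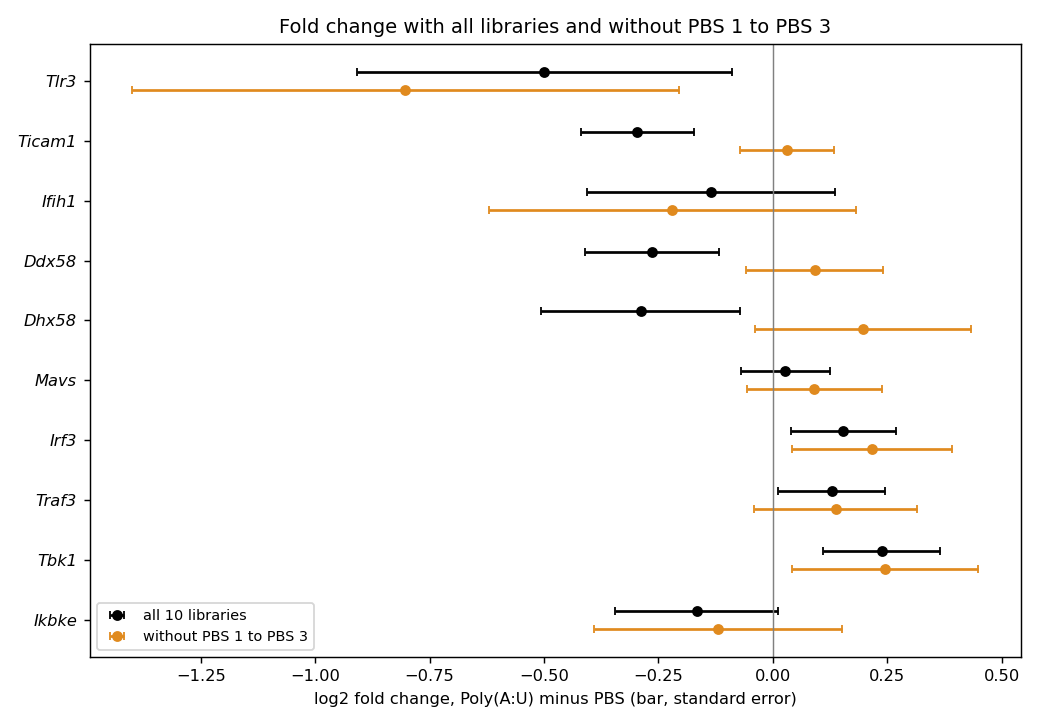
Log2 fold change of each gene, Poly(A:U) minus PBS (horizontal axis, bars are standard errors), with all 10 libraries (black) and without PBS 1 to PBS 3 (orange). For Ticam1, Ddx58 and Dhx58 the sign turned from negative to positive, to 0.03, 0.09 and 0.20, and the other 7 genes stayed on their side of 0.

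Mavs, on chromosome 2 at 131234063 to 131248025 (mm10, plus strand), encodes the adaptor on which both cytosolic receptors converge. It had 54.2, 38.6, 48.8, 48.1 and 56.2 CPM in Poly(A:U) 1 to 5, and 50.6, 47.6, 48.0, 39.9 and 50.4 CPM in PBS 1 to 5. The lowest libraries were Poly(A:U) 2 and PBS 4, and the others lay close together in both groups. On the log2 scale the fold change was 0.03 ± 0.10 (SE), a fold of 1.02 with a 95% interval from 0.88 to 1.18, and the adjusted p by edgeR's quasi-likelihood test was 0.953. This was the narrowest interval of the 10 genes. With all shared name parts as terms in edgeR, Mavs had an unadjusted p under 0.05, beside 5.76% of all genes, and was not called after adjustment.

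Traf3, a ubiquitin ligase that carries the signal from TRIF and MAVS to the kinases and also restrains noncanonical NF-κB signalling in B cells, lies on chromosome 12 at 111166370 to 111267153 (mm10, plus strand). It had 35.7, 35.7, 46.6, 41.2 and 53.7 CPM in Poly(A:U) 1 to 5, and 40.3, 35.7, 39.2, 31.6 and 44.1 CPM in PBS 1 to 5. Poly(A:U) 5 was the highest and PBS 4 the lowest, and 4 of the 5 PBS values fell inside the Poly(A:U) range. The log2 fold change was 0.13 ± 0.12 (SE), and the adjusted p by edgeR's quasi-likelihood test was 0.773.

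Tbk1, on chromosome 10 at 121546455 to 121586787 (mm10, minus strand), encodes the kinase that phosphorylates IRF3. It had 53.4, 50.7, 56.6, 66.3 and 62.8 CPM in Poly(A:U) 1 to 5, and 51.5, 46.7, 47.2, 34.0 and 61.8 CPM in PBS 1 to 5. All 5 Poly(A:U) libraries were above the PBS mean, but PBS 5 was above 3 of the Poly(A:U) libraries and PBS 4 was the lowest of all 10. Its log2 fold change was 0.24 ± 0.13 (SE), a fold of 1.18 with a 95% interval from 0.97 to 1.43, and the adjusted p by edgeR's quasi-likelihood test was 0.695. It was 0.25 without PBS 1 to PBS 3, where the PBS side was PBS 4 and PBS 5, the lowest and the highest PBS values. Leaving out 1 library gave 0.14 to 0.33.

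Ikbke, on chromosome 1 at 131254343 to 131279606 (mm10, minus strand), encodes IKKε, the second IRF3 kinase, whose level is inducible in many cell types. It had 5.96, 4.21, 6.48, 4.37 and 5.52 CPM in Poly(A:U) 1 to 5, and 5.76, 6.39, 5.76, 6.74 and 4.52 CPM in PBS 1 to 5. The low libraries were Poly(A:U) 2, Poly(A:U) 4 and PBS 5. On the log2 scale the fold change was -0.17 ± 0.18 (SE), and the adjusted p by edgeR's quasi-likelihood test was 0.804. The libraries low in Ikbke tended to be high in Tbk1, with a Pearson r of -0.73 over the 10 libraries.

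Irf3, the transcription factor that the kinases activate, lies on chromosome 7 at 44997648 to 45002848 (mm10, plus strand). It had 104, 125, 101, 103 and 88.3 CPM in Poly(A:U) 1 to 5, and 103, 96.6, 85.2, 76.1 and 101 CPM in PBS 1 to 5. Poly(A:U) 2 was the highest and PBS 4 the lowest, and 3 of the 5 PBS values fell inside the Poly(A:U) range. The log2 fold change was 0.15 ± 0.12 (SE), a fold of 1.11 with a 95% interval from 0.94 to 1.32, and the adjusted p by edgeR's quasi-likelihood test was 0.730. The annotated span of Irf3 overlaps that of Bcl2l12, which is transcribed from the opposite strand, over 1065 bases. How much of this overlap lies in exons was not examined. Whether the authors' counting used strand is not stated, so some reads there may have been given to the wrong gene. Bcl2l12 itself had a mean of 42.0 CPM.

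**Figure D3:**
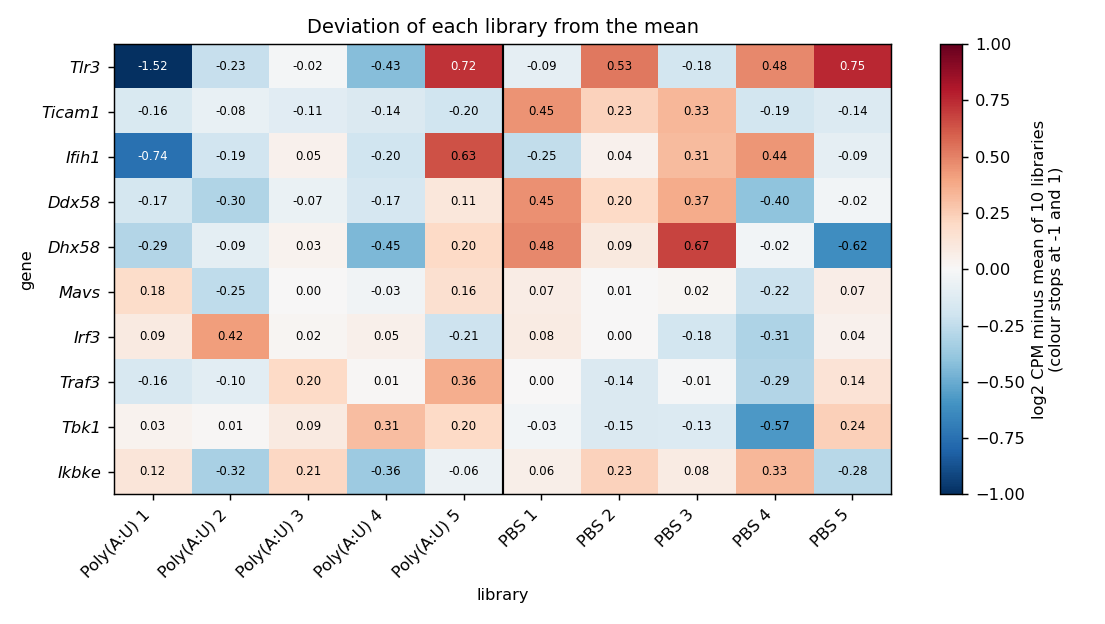
Deviation of each library (columns, Poly(A:U) left of the line and PBS right of it) from the mean of all 10 libraries for each gene (rows), in log2 CPM, with the value printed in each cell and the colour stopping at -1 and 1. PBS 1 to PBS 3 are positive for Ticam1, Ddx58 and Dhx58, between 0.09 and 0.67, and PBS 4 is negative for these and for Mavs, Irf3, Traf3 and Tbk1.

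How the genes went together across the 10 libraries was described with Pearson r of log2 CPM. The points share their libraries, their depth and the library differences described above, so no test was made. Among the 45 pairs of the 10 genes the median r was 0.06. The 4 pairs above 0.7 were Ticam1 with Ddx58 at 0.84, Tlr3 with Ifih1 at 0.76, Ticam1 with Dhx58 at 0.73 and Traf3 with Tbk1 at 0.71. The 2 pairs below -0.7 were Tbk1 with Ikbke and Ifih1 with Irf3, the second at -0.71. Between the receptor and the adaptor of the same route, r was -0.00 for Tlr3 with Ticam1, 0.54 for Ddx58 with Mavs and -0.18 for Ifih1 with Mavs. Among tested genes averaging 5 CPM or more, gene models without a proper name left out, the gene most like Ddx58 was Parp9, an interferon-inducible gene, with r = 0.980, and 162 genes exceeded 0.9. The gene most like Dhx58 was Cmpk2, another interferon-inducible gene, with r = 0.936. For Ticam1 it was Arrdc3, an alpha-arrestin gene, with r = 0.970, and Arrdc3 itself ranged from 29.5 to 151 CPM. For the kinase genes it was Atxn3 with Tbk1, at r = 0.942, and Hpcal1 with Ikbke, at r = 0.912. For the rest it was Baz2b with Traf3 at 0.982, Homer3 with Irf3 at 0.975, Zfp930 with Ifih1 at 0.939, Bcl2l2 with Mavs at 0.937 and Gmeb1 with Tlr3 at 0.861. Each of these r values is the highest of 9456 or 9457 compared.

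The library names also tie some treated libraries to PBS libraries. Poly(A:U) 5 shares a part of its file name with PBS 4, and Poly(A:U) 1 shares one with PBS 5, and the sources used here do not say what these parts mean. The log2 difference of Poly(A:U) 5 minus PBS 4 was 0.51 for Ddx58, 0.77 for Tbk1, 0.65 for Traf3 and -0.01 for Ticam1. That of Poly(A:U) 1 minus PBS 5 was -0.15 for Ddx58, -0.20 for Tbk1, -0.30 for Traf3 and -0.02 for Ticam1. The signs of Ddx58, Tbk1 and Traf3 were thus opposite in the 2 pairs, and Ticam1 was nearly level in both. The signs were also opposite for Tlr3, at 0.24 in the first pair and -2.28 in the second, for Ifih1, at 0.19 and -0.65, and for Ikbke, at -0.39 and 0.40. Both pairs were positive for Dhx58, at 0.23 and 0.33, for Mavs, at 0.38 and 0.11, and for Irf3, at 0.10 and 0.05. PBS 4, which had the highest sums of macrophage and T cell markers, is part of the first pair, and its part in these differences was not tested. Within the treated group, Poly(A:U) 3 and Poly(A:U) 4 also share a part of their file names. Their log2 CPM correlated at 0.988 across genes, the highest value of any 2 libraries. The edgeR fit with treatment as the only term counts them as independent.

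The pathway around the 10 genes was described with 7 lists of 93 further genes, of which 80 were tested. None was called by edgeR's adjusted p. In limma voom, 7 of the genes named below from these lists passed the adjusted threshold, namely Trim25, Nlrx1, Azi2, Adar, Nfkb2, Stat2 and Jak1. They were named for the smallest edgeR p of each list in these same data. Their number is therefore not comparable with the 3.55% of all genes called in limma voom. The limma voom results of the other genes in these lists are not given here. Without adjustment in edgeR, 8 of the 80, or 10%, had p under 0.05, 3 higher and 5 lower with Poly(A:U), beside 7.30% of all tested genes. The median log2 fold change of the 80 was -0.03.

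**Figure D4:**
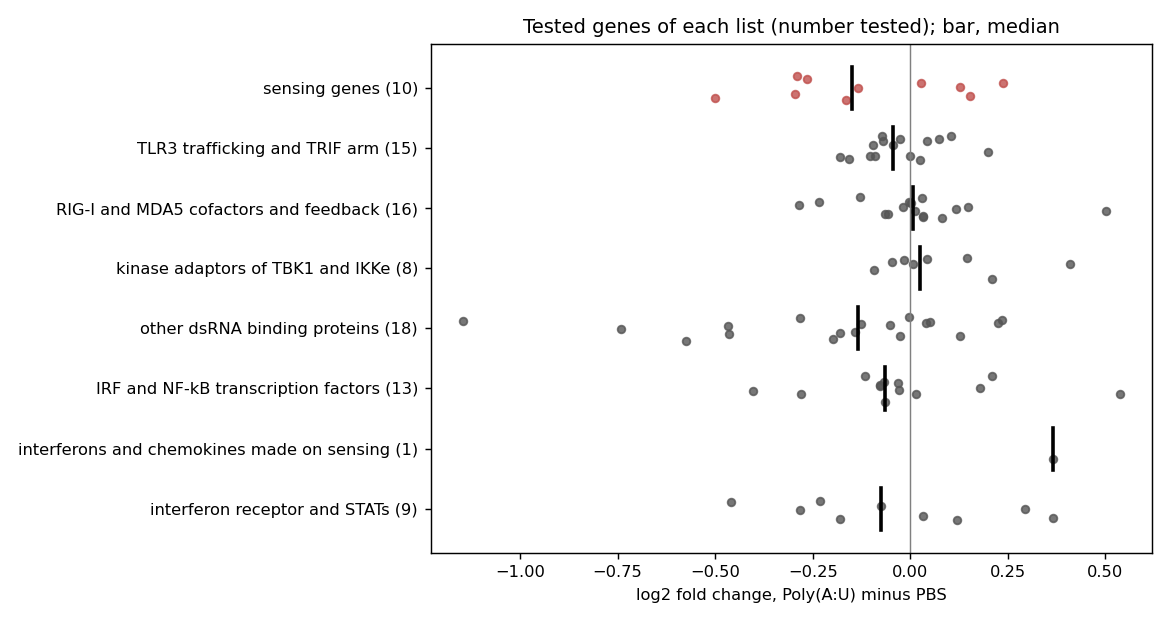
Log2 fold change, Poly(A:U) minus PBS (horizontal axis), of every tested gene of the 10 sensing genes (red, top row) and of the 7 further lists (grey), with the median as a bar and the number tested in brackets. The medians of the lists with more than 1 tested gene lie between -0.15 and 0.03. None of these genes passed the adjusted threshold in edgeR, the test plotted. Of the further genes named in the text, 7 did in limma voom, and the others are not given for that fit.

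Of the 15 genes that bring TLR3 to the endosome or act beside TRIF, 0 had an unadjusted p under 0.05, and the median log2 fold change was -0.05, or 0.04 with a term for the shared name start. The 2 with the smallest p were Peli1, a ubiquitin ligase that acts on RIP1 after TRIF, at 0.20 ± 0.11, and Cnpy3, a chaperone for Toll-like receptors, at -0.18 ± 0.10. Of the 16 cofactors and feedback regulators of RIG-I and MDA5, Trim25 and Nlrx1 had an unadjusted p under 0.05. Trim25, a ubiquitin ligase for RIG-I, had 144, 139, 176, 164 and 230 CPM in Poly(A:U) 1 to 5, against 92.3, 88.9, 121, 138 and 148 CPM in PBS 1 to 5. The log2 fold change of Trim25 was 0.50 ± 0.16, with an unadjusted p of 0.0094 and an adjusted p of 0.677 by edgeR's quasi-likelihood test. The lowest 3 libraries of Trim25 were PBS 1 to PBS 3, and with their name start as a term the treatment gave 0.21 ± 0.17. Nlrx1, a mitochondrial regulator of MAVS signalling, gave -0.29 ± 0.11, and -0.06 with that term.

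Of the 8 tested partners of TBK1 and IKKε, 2 had an unadjusted p under 0.05. Azi2, which encodes the TBK1 adaptor NAP1, had 44.1, 45.1, 49.9, 46.3 and 59.6 CPM in Poly(A:U) 1 to 5, against 29.9, 31.8, 32.2, 40.7 and 46.4 CPM in PBS 1 to 5. For Azi2 the log2 fold change was 0.41 ± 0.13 with an adjusted p of 0.677 by edgeR's quasi-likelihood test, and the treatment gave 0.14 ± 0.12 with the name start as a term, PBS 1 to PBS 3 again being the lowest. Tmem173, which encodes the cytosolic DNA adaptor STING, had 73.5, 70.2, 84.1, 70.1 and 71.6 CPM in Poly(A:U) 1 to 5, against 55.4, 68.5, 59.7, 64.1 and 66.4 CPM in PBS 1 to 5. Every Poly(A:U) library was above every PBS library, and the share of all tested genes whose groups did not overlap, in either direction, was 0.947%. For Tmem173 the log2 fold change was 0.21 ± 0.08, with an unadjusted p of 0.0297 and an adjusted p of 0.677 by edgeR's quasi-likelihood test. With the name start as a term it was 0.15 ± 0.11, with an unadjusted p of 0.218 in edgeR. Tbkbp1, a further adaptor, did not pass the filter on low counts.

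Of 18 other proteins that bind double-stranded RNA, 13 were on the negative side and 5 on the positive, and the median log2 fold change was -0.13. With a term for the shared name start, 8 were negative and 10 positive, with a median of 0.01. The 2 with the smallest p were Adar, the RNA-editing deaminase, at -0.28 ± 0.12, which was -0.07 ± 0.13 with that term, and Oas1a, an oligoadenylate synthetase that activates RNase L, at -0.74 ± 0.33. Oas1a had 6.07, 7.71, 11.9, 4.65 and 9.58 CPM in Poly(A:U) 1 to 5, against 18.9, 11.3, 20.3, 8.60 and 6.74 CPM in PBS 1 to 5. The adjusted p of Oas1a was 0.679 by edgeR's quasi-likelihood test. Oas1a was 1.11 ± 0.37 higher in PBS 1 to PBS 3 than in the other PBS libraries on the log2 scale, and with that term the treatment gave 0.02 ± 0.33. The Oas genes are close copies of one another, so the authors' estimation may have shared out their reads.

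Among 13 transcription factors of the IRF and NF-κB families, 4 fold changes were positive and 9 negative, and with a term for the shared name start 7 were positive and 6 negative. Nfkb2, the noncanonical NF-κB subunit, gave -0.28 ± 0.12 with an unadjusted p of 0.0433, and Irf1 gave 0.18 ± 0.09 with an unadjusted p of 0.0738, both from edgeR's quasi-likelihood test over 10 libraries. In Nfkb2, 4 of 5 PBS libraries were above all Poly(A:U) libraries and PBS 4 was below them. Of the 9 genes of the interferon receptor and its signal path, Stat2 gave -0.28 ± 0.11 and Jak1 -0.23 ± 0.12, with adjusted p-values of 0.677 and 0.695 in edgeR. With the name start as a term the treatment gave 0.05 for Irf1, -0.04 for Nfkb2, -0.04 for Stat2 and -0.02 for Jak1, and the last 3 genes were higher in PBS 1 to PBS 3 by 0.39, 0.38 and 0.33.

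The products of sensing were scarce in both groups. Ifnb1, the interferon gene that IRF3 activates, had 0 reads in all 10 libraries, where 3 reads, about the 95% upper limit for a count of 0 and for counting error only, correspond to 0.133 to 0.168 CPM. The genes Ifna1, Ifna4, Ifna5, Ifnk, Ifnl2 and Ifnl3 also had 0 reads in all 10, and Ifna2 had 2 reads in Poly(A:U) 3 and 0 elsewhere. The Ifna genes are close copies, so where such reads belong is uncertain. Of the 13 genes in this list 1 was tested, Tnf, at 2.37 ± 1.61 CPM with Poly(A:U) and 1.79 ± 0.617 CPM with PBS (SD, n = 5 each). Its log2 fold change was 0.36 ± 0.43 with an adjusted p of 0.825 by edgeR's quasi-likelihood test. Ccl5, an IRF3 target chemokine gene, had 0.39, 0.222, 0.426, 0.168 and 0.0456 CPM in Poly(A:U) 1 to 5, against 1.22, 1.51, 0.693, 0.147 and 0.943 CPM in PBS 1 to 5. The PBS libraries other than PBS 4 were above all treated libraries for Ccl5, on 1 to 27 reads a library, and it was too low to be tested.

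Transcripts of other cell types were looked at beside the receptor genes, since TLR3 is known to be high in cross-presenting dendritic cells. Their defining markers Xcr1 and Clec9a reached at most 0.68 and 0.20 CPM, both in PBS 1, and 5 of 7 markers of conventional dendritic cells were under 1 CPM in all 10 libraries. The list's sum of 722 to 1270 CPM with Poly(A:U) and 956 to 1317 CPM with PBS was almost wholly Wdfy4, at 721 to 1268 CPM with Poly(A:U) and 952 to 1314 CPM with PBS, a gene also expressed in B cells. Of the macrophage markers C1qa had 0.73 to 4.29 CPM with Poly(A:U) and 0.73 to 32.6 CPM with PBS, the highest in PBS 4, where Tlr3 stood at 1.38 CPM. The part of these cells in the level of Tlr3 was not tested.

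The deposited files list 67 transcripts of the 10 genes, of which 10 were at 0 in all libraries and 35 made up at least 3% of their gene's TPM on average. These shares come from the authors' estimation, in which reads common to several transcripts are divided, so a low share is uncertain. For Irf3 the largest share was that of Irf3-207, annotated as a retained intron, with 40.1% on average with Poly(A:U) and 35.8% with PBS. Protein-coding transcripts made up 50.1 ± 6.02% of Irf3 with Poly(A:U) and 56.0 ± 2.92% with PBS (SD, n = 5 each), and the ranges overlapped, from 44.4% to 58.9% with Poly(A:U) and from 52.0% to 58.8% with PBS. For Ddx58 the coding transcript Ddx58-201 held 64.1% on average with Poly(A:U) and 65.3% with PBS, and most of the remainder was Ddx58-205, a processed transcript that the annotation lists as noncoding. The share of coding transcripts in Ikbke was 93.8 ± 4.85% with Poly(A:U) and 81.2 ± 7.99% with PBS, with ranges that overlapped through PBS 4 only, at 95.3%. These Ikbke shares rest on few reads, since no noncoding transcript of the gene had more than 7.61 estimated reads in any library. The difference was not tested. In 3 other genes a coding transcript held most of the level, with Tbk1-201 at 85.8%, Dhx58-201 at 82.3% and Mavs-201 at 79.9% over all libraries, and Ticam1 has a single annotated transcript. In Ifih1 the estimates moved between 2 coding transcripts, with Ifih1-201 at 10.7% to 100% of the gene by library. In Tlr3 the leading one on average, Tlr3-202, had a mean of 40.9%. It ranged from 0% to 100% by library, on 0 to 26 reads.

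**Figure D5:**
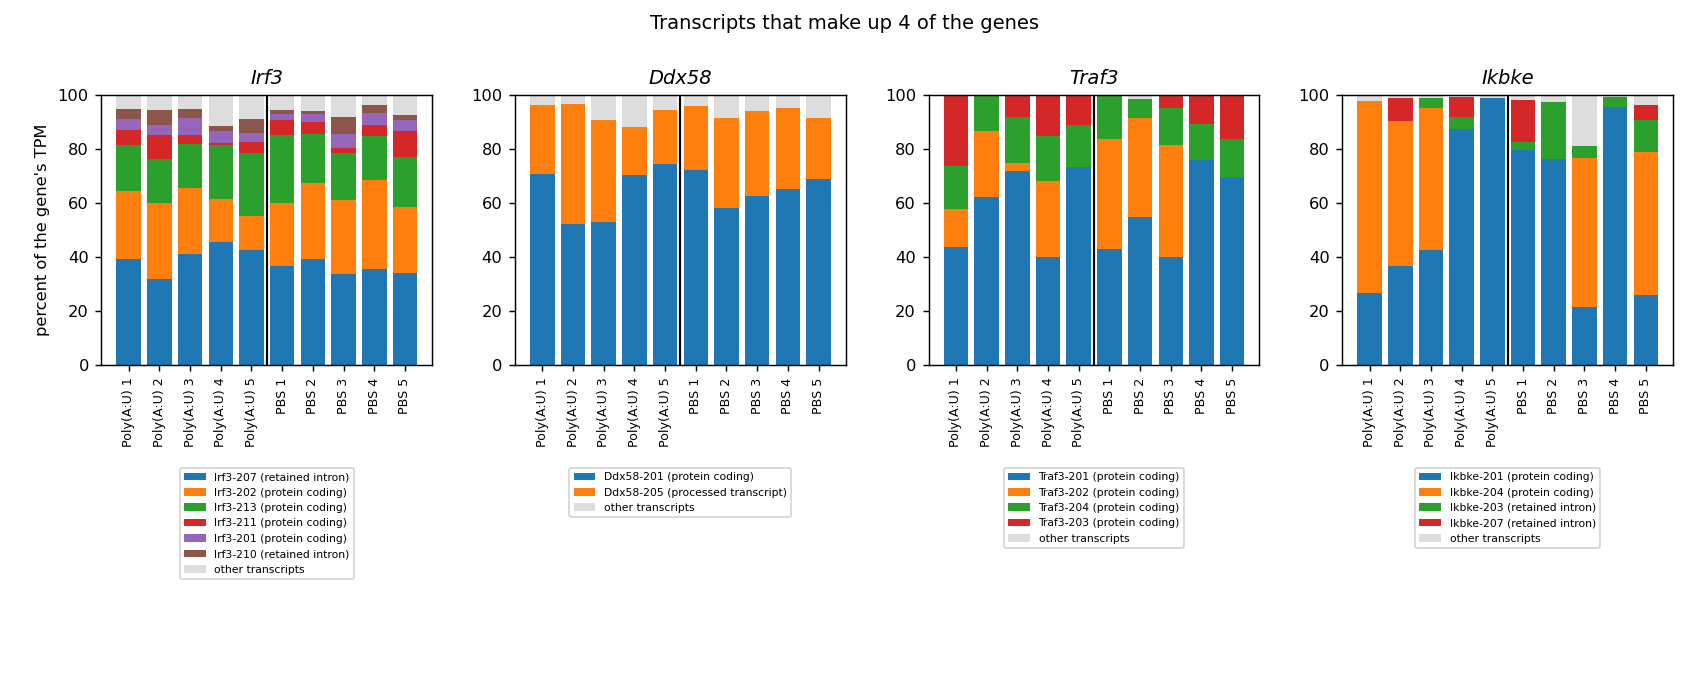
Share of each transcript in the TPM of Irf3, Ddx58, Traf3 and Ikbke (vertical axis, percent) in every library, Poly(A:U) left of the line and PBS right of it, with the annotated type in brackets and transcripts under 3% on average pooled as other transcripts. Irf3-207 leads in Irf3, and Traf3-202 has its highest shares, 36.6% to 41.4%, in PBS 1 to PBS 3.

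Traf3 and Ikbke showed transcripts that were present in some libraries and listed at 0 in others. Traf3-202 held 14.2%, 24.4%, 3.13%, 28.0% and 0% of the gene in Poly(A:U) 1 to 5, and 40.9%, 36.6%, 41.4%, 0% and 0% in PBS 1 to 5. Its 3 highest shares were in PBS 1 to PBS 3, the libraries with a name start of their own. Ikbke-204 was listed at 0 in 2 Poly(A:U) and 3 PBS libraries and held up to 71.0% in the rest, in exchange with Ikbke-201. No test was made of these shares.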

How the data were processed

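Bulk RNA sequencing of sorted LICs gave 10 libraries, 5 from Poly(A:U) and 5 from PBS pups, grouped by the treatment in the labels. Transcript-level estimated counts and TPM were deposited by the authors, per the file headers. A normalized signal per gene (13699 genes, 9 without a match here) was also deposited by the authors in 1 table of all libraries. DRAGEN, edgeR 3.38.4 and mm10 are named in the submitters' processing notes. Settings and the use of strand are not stated.

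Estimated counts were summed per gene with GENCODE M21 (GRCm38) and rounded, leaving out 538 of 142333 transcripts (0.046% to 0.0695% of reads). CPM is counts per 1e+06 gene reads. TPM was summed over transcripts. Genes passing filterByExpr at its defaults (minimum count 10) were fitted in R 4.3.3 with edgeR 4.0.16 (TMM, robust quasi-likelihood, treatment as the only term), and standard errors and 95% intervals come from that fit. The code was tested on simulated data. Tests are two-sided and cover the spread between pups and counting error. DESeq2 1.42.0, limma 3.58.1 with voom quality weights, another scaling, other filters, coding transcripts only, a replicate block, the shared name parts as terms, and leaving libraries out were the alternatives. A limma fit of the authors' signal as log2(value + 1) was added after seeing the data.

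The 10 genes and all lists were chosen with earlier results of these data known. Of each list the text names the 2 tested genes with the smallest unadjusted p, and Ifnb1, and for each of the 10 the gene with the highest Pearson r. Ifna2, Ccl5, Tbkbp1, Wdfy4 and Bcl2l12 were named after their values were seen, as were the marker genes given beside a sum.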

Additional observations from a re-analysis of the deposited data

Results flagged for a closer look

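Among 48 groups of 5 values, 2 held a library that lay far from the other 4, by Dixon's criterion at a gap of more than 0.71 of the range, and chance gives about 1 in 20. Mavs had 39.9 CPM in PBS 4, below the 47.6 to 50.6 CPM of the other 4 PBS libraries. PBS 4 is also the library with the highest sums of macrophage and T cell markers. Tmem173 had 84.1 CPM in Poly(A:U) 3, above the 70.1 to 73.5 CPM of the other 4 Poly(A:U) libraries. The cause of neither value was tested.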

How the results depend on the processing

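No alternative called any of the 10 genes. Of 207 values of their fold changes under 21 alternatives, 194 kept their direction and 13 reversed. Genes called over all tested genes numbered 0 in edgeR as reported, 13 with DESeq2 (4 higher, 9 lower with Poly(A:U)), 488 with limma voom (270 higher, 218 lower), and 0 to 18 leaving out 1 library, the 18 without PBS 5. The replicate block called 0 genes and left 1 of the 10, Ticam1, with an unadjusted p under 0.05. Replicate numbers give no pairing of the groups, since same-numbered deviations correlated at -0.18 to 0.14. The deviations of Poly(A:U) 1 correlated most with those of PBS 5, and those of Poly(A:U) 5 with those of PBS 4. These are the pairs of a treated and a PBS library that share a part of the file name. For Poly(A:U) 2, 3 and 4 the best match was PBS 2, PBS 2 and PBS 1. What lies behind these matches was not tested. The count of the 10 with an unadjusted p under 0.05, 1 as reported, was 3 with limma voom, 0 without PBS 1 to PBS 3, 0 with the name start as a term, and 0 to 3 leaving out 1 library (0 in turn without each of PBS 1 to 3 and of the treated libraries 1, 3 and 4, 2 without PBS 4 or treated library 5, 3 without PBS 5). With all shared name parts as terms it was 1, Mavs and not Ticam1, beside 5.76% of all genes.

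The reversed log2 fold changes were, without PBS 1 to PBS 3, Ticam1 0.031, Ddx58 0.091, Dhx58 0.20 and Oas1a 0.024. With the name start as a term, which sets the same libraries against each other, they were Ticam1 0.026, Ddx58 0.088, Dhx58 0.19 and Oas1a 0.022. With all shared name parts as terms they were Ddx58 0.18, Dhx58 0.28, Nlrx1 0.040, Adar 0.087, Stat2 0.055, Jak1 0.14 and Wdfy4 0.16. With limma voom Mavs was -0.016. Leaving out 1 library gave Mavs -0.022 to 0.083, Ifih1 -0.38 to 0.0028 and Tnf -0.088 to 0.59. In limma voom Trim25, Nlrx1, Azi2, Adar, Nfkb2, Stat2 and Jak1 passed the adjusted threshold. The cause was not tested. Under the filter of 10 CPM, Tlr3, Ifih1 and Ikbke were not tested. Depth limits Tlr3 most, at 5 to 39 reads a library.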
